A study of Saccharomyces cerevisiae with 11 samples.

Results

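Iron uptake and regulation in Saccharomyces cerevisiae was followed here through the leaders of 10 genes, out of 6021 protein-coding genes in the RefSeq table of assembly R64. The 10 were selected by gene name and role, and they were proposed with earlier leader lengths and calls of these libraries known. They are the cell wall mannoprotein genes FIT1 (YDR534C), FIT2 (YOR382W) and FIT3 (YOR383C), the reductive uptake genes FET3 (YMR058W) and FTR1 (YER145C), the siderophore transporter genes ARN1 (YHL040C), ARN2 (YHL047C) and SIT1 (YEL065W), and the regulator genes AFT1 (YGL071W) and AFT2 (YPL202C). Their lengths and calls are therefore given as a description, without a test.

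A transcript leader is the stretch of an mRNA from its capped 5′ end to its start codon, which the small ribosomal subunit scans before translation begins. TL-seq sequences capped 5′ ends, and TATL-seq does so for RNA from the fractions of a polysome gradient. The groups were 1 library of Sigma 1278b with tobacco acid pyrophosphatase and 1 without it, 7 TATL-seq libraries of BY4742, one for each gradient fraction, and 2 TL-seq libraries of S288C described as biological replicates. The enzyme opens the cap so that an adaptor can be ligated, and the Sigma library without it is the control for ends that need no such step. Per the labels, Sigma 1278b was MAT a and carried ura3, leu2, trp1 and his3, and BY4742, a derivative of S288C, was Mat α and lacked the HIS3, LEU2, LYS2 and URA3 functions. Cultures were in mid-log phase in rich glucose medium with added adenine, so no group was short of iron by design.

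Budding yeast takes up iron by several routes. In the reductive route, surface reductases turn ferric into ferrous iron, the multicopper oxidase Fet3 oxidises it again, and the permease Ftr1 carries it through the plasma membrane. In the siderophore route, transporters of the Arn family take up iron bound to siderophores, small chelators made by other microbes, and the Fit mannoproteins help to hold siderophore iron in the cell wall. When iron is scarce, the transcription activators Aft1 and Aft2 switch on most of these genes.

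Each library gave at most 1 leader length per gene in nucleotides (nt), with no read count, so the depth behind a length is unknown and a length says nothing of how abundant an mRNA was. Protein-coding genes with a call numbered 1882 in Sigma with and 204 without pyrophosphatase, 2080 to 2482 in the 7 fractions, and 3561 and 3441 in the S288C replicates. The S288C libraries were sequenced on another instrument (HiSeq 2000) than all the rest (Genome Analyzer II), per the labels, and the effects of strain and of instrument on TL-seq cannot be told apart. The mating type was checked on marker genes. Sigma, labelled MAT a, had calls of the a-factor genes MFA1 (7 nt) and MFA2 (40 nt) and none of the α-specific genes MF(ALPHA)1, MF(ALPHA)2 and STE3. The a-specific genes STE2 and STE6 had no call in Sigma either. The S288C replicates had calls of MF(ALPHA)1 (55 nt in both) and MF(ALPHA)2 (53 nt in both) and none of the a-specific genes. The α-specific gene STE3 had no call in either replicate. The fractions, labelled Mat α, had calls of both kinds: MF(ALPHA)2 in 6 fractions and STE3 in fraction 1 (244 nt), and the a-specific receptor gene STE2 in all 7, at 26 nt in each. MFA1 was called in fractions 1 and 3 and MFA2 in fractions 1, 3 and 6, and the a-specific transporter gene STE6 and MF(ALPHA)1 in none. The a-specific calls go against the label, and all values from the fractions below rest on these 7 libraries. LYS2, deleted in BY4742, had no call in any library, Sigma and S288C included, so its absence from the fractions says nothing of their label.

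Of the 10 iron genes, 8 had a call in at least 1 library, against 75.6% of all 6021 genes. FIT1, the gene of a cell wall mannoprotein, and AFT1, the gene of the main iron-responsive activator, had no call in any of the 11 libraries. No iron gene was called in Sigma without pyrophosphatase, where 3.39% of all genes were. With the enzyme, FIT2, FIT3, FTR1 and ARN1 were called, 4 of 10 against 31.3% of all genes. In the S288C replicates 5 of 10 were called in each, FIT3, FET3, FTR1, SIT1 and AFT2, against 59.1% and 57.1% of all genes. FIT2, ARN1 and ARN2, 3 of the 8 iron genes with calls in gradient fractions, had calls in neither S288C replicate. The share of all genes with that pattern was not computed, so whether this is usual cannot be said. Leaving out the fractions removed ARN2 and left 7 of 10 genes with a call, against 4075 of all 6021 genes.

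The fractions differed in how many iron genes they called. The counts of fractions 1, 2, 3, 4 and 7 lay within 2 genes of the share over all genes, and those of fractions 5 and 6 lay further above it. Fraction 1 held 2 of 10 (FIT2 and FET3) against 34.5% of all genes, and fraction 2 held 3 of 10 (FET3, FTR1 and ARN1) against 40.0%. Fractions 3 and 4 held 6 each, against 41.2% and 41.0% of all genes. Fractions 5 and 6 held 7 each, against 40.6% and 41.2%, and fraction 7 held 6, against 40.6%. Among genes called in any fraction, 4 of 8 iron genes (FIT3, ARN2, SIT1 and AFT2) had calls in none of fractions 1 and 2, against 22.4% of all genes. FET3 was the 1 of 8 called in all 7 fractions, against 33.6% of all genes. The labels do not say which fractions held mRNAs with few or many ribosomes, so no direction along the gradient can be read from these counts. Absence from a library means that the authors deposited no length for the gene there, which can also follow from depth or from their filters.

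**Figure D1:**
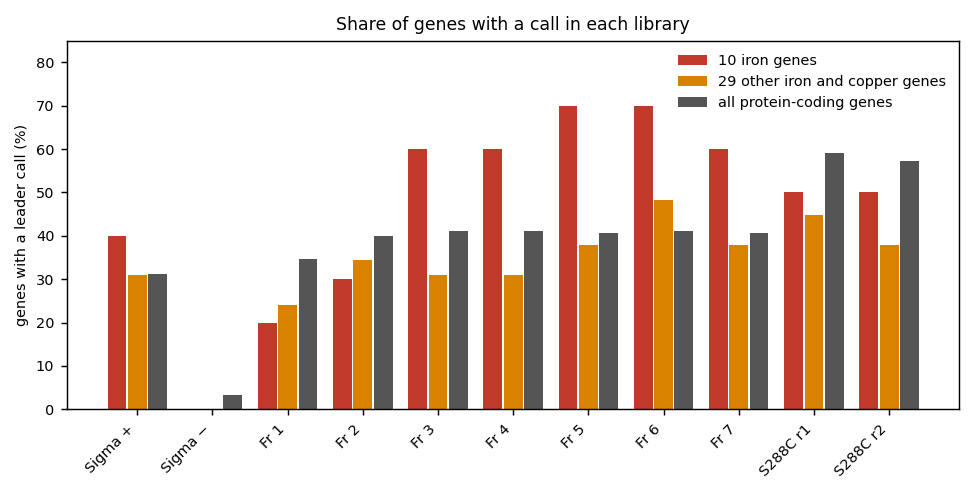
Percentage of genes with a leader call (y axis) in each library (x axis; Sigma + and − are with and without pyrophosphatase, Fr is a TATL-seq fraction, r1 and r2 are replicates), for the 10 iron genes, 29 other iron and copper genes and all 6021 protein-coding genes. The iron genes stand at 2 and 3 of 10 in fractions 1 and 2 and at 6 or 7 of 10 in fractions 3 to 7. All genes stand at 34.5% and 40.0% in fractions 1 and 2 and at 40.6% to 41.2% in fractions 3 to 7.

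The FIT genes encode mannoproteins anchored in the cell wall. FIT2 had 1 of 2 very different leaders, depending on the library. It was 316 nt long in Sigma, and in the fractions 301 nt in fraction 1, 13 nt in fraction 3, 17 nt in each of fractions 4, 5 and 6, and again 13 nt in fraction 7, with no call in fraction 2 or in S288C. The long leader thus appeared in unfractionated Sigma RNA and in a single fraction of the gradient, and the short one in all 5 of the later fractions. The range over fractions, from 13 to 301 nt, was exceeded by 4 of the 2061 genes called in at least 5 fractions, and without fraction 1 it was 4 nt. The Sigma leader was 299 nt longer than the median over fractions, a difference exceeded by 2 of 1788 genes.

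FIT2 lies on the plus strand of chromosome XV from 1059531 to 1059992 (R64). The long leaders put the 5′ end at position 1059215 in Sigma and 1059230 in fraction 1, and the short ones put it at 1059514 to 1059518 in fractions 3 to 7. All of these positions fall in the 940 bases between the FIT2 start codon and YOR381W-A, the next annotated gene upstream, which had no call in any library. The build behind the 9 libraries of the Genome Analyzer II is sacCer3 per the submitters' processing notes, which is the R64 sequence.

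FIT3 lies beyond FIT2 on the minus strand (chromosome XV, 1060441 to 1061055), tail to tail with it, with 448 bases between them. Its leader was 6 nt long in Sigma, against 48 nt in both S288C replicates (SD 0, n = 2). In the fractions it was 106 nt in fraction 4, 13 nt in fraction 5, 14 nt in fraction 6 and 6 nt in fraction 7. Sigma and fractions 5 to 7 therefore lay below S288C, and fraction 4 lay above it. The median over fractions was 13.5 nt, which is 34.5 nt under S288C. With the mean over fractions, which takes in the 106 nt of fraction 4 in full, the difference was −13.25 nt. Sigma minus the median over fractions was −7.5 nt.

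FET3 encodes the multicopper oxidase of reductive uptake and had the most even leader of the group. It was 51 nt long in each of the 7 fractions, against 56 nt in both S288C replicates (SD 0, n = 2), and it had no call in Sigma. A single length in all 7 fractions was found in 34.9% of all genes called in all 7. The difference of 5 nt from S288C equals the size of the median difference over all 2553 genes compared, which was −5 nt. FTR1, the gene of its permease partner, varied more. Its leader was 24 nt in Sigma, and 40, 18, 30, 30, 30 and 40 nt in fractions 2 to 7, against 22 nt in both S288C replicates (SD 0, n = 2). Fractions 2 and 7 were the highest and fraction 3, the lowest, was the 1 fraction below S288C. The median over fractions was 30 nt, 8 nt above S288C and 6 nt above Sigma. FET3 (chromosome XIII, 388822 to 390732, plus strand) and FTR1 (chromosome V, 460526 to 461740, minus strand) thus had called ends within 56 nt of the start codon in every library that called them.

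The ARN family encodes siderophore transporters of the plasma membrane and endosomes. ARN1, the ferrichrome transporter gene (chromosome VIII, 19088 to 20971, minus strand), had the lowest median length of the 8 iron genes with a call in the fractions. Its length was 0 nt in Sigma, which places the called end at the start codon, and 6, 23, 9, 9, 9 and 9 nt in fractions 2 to 7, with no call in fraction 1 or in S288C. A length of 0 nt was given to 21 of the 1882 genes called in Sigma. The median over fractions was 9 nt, and ARN1 was the 1 of 8 iron genes with a median under 12 nt, against 13.1% of all genes. Of the libraries that called it, all but fraction 3 lay under 12 nt.

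ARN2, which encodes the transporter of triacetylfusarinine C, had the longest leaders of the group in the fractions. It was 400 nt long in fraction 3, 401 nt in fraction 4, 400 nt in fraction 5 and 438 nt in fraction 6, and no other library called it. The median of 400.5 nt was exceeded by 62 of the 3633 genes with a call in any fraction. ARN2 was also the 1 of 8 iron genes with a median of at least 100 nt over fractions, against 18.2% of all genes. It lies near the left end of chromosome VIII (8351 to 10213, minus strand), as does ARN1, and its leaders fall within the 1709 bases that separate it from PAU13.

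SIT1, the ferrioxamine B transporter gene (chromosome V, 27657 to 29543, plus strand), was called in 2 fractions, with 51 nt in fraction 6 and 63 nt in fraction 7, against 21 nt in both S288C replicates (SD 0, n = 2). Both fractions lay above S288C, and their median was 36 nt longer. The medians over fractions of the 3 transporter genes ran from 9 nt for ARN1 through 57 nt for SIT1 to 400.5 nt for ARN2. They are related genes, and the sources used here do not say how reads that match several of them were placed.

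AFT2, the gene of the second iron-responsive activator (chromosome XVI, 168088 to 169338, minus strand), was called in 2 fractions, at 67 nt in fraction 3 and 79 nt in fraction 5, against 55 nt in both S288C replicates (SD 0, n = 2). Both fractions lay above S288C, by a median of 18 nt. AFT1 (chromosome VII, 372012 to 374084, plus strand) had no call, so the leaders of the paralogous activators cannot be compared.

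**Figure D2:**
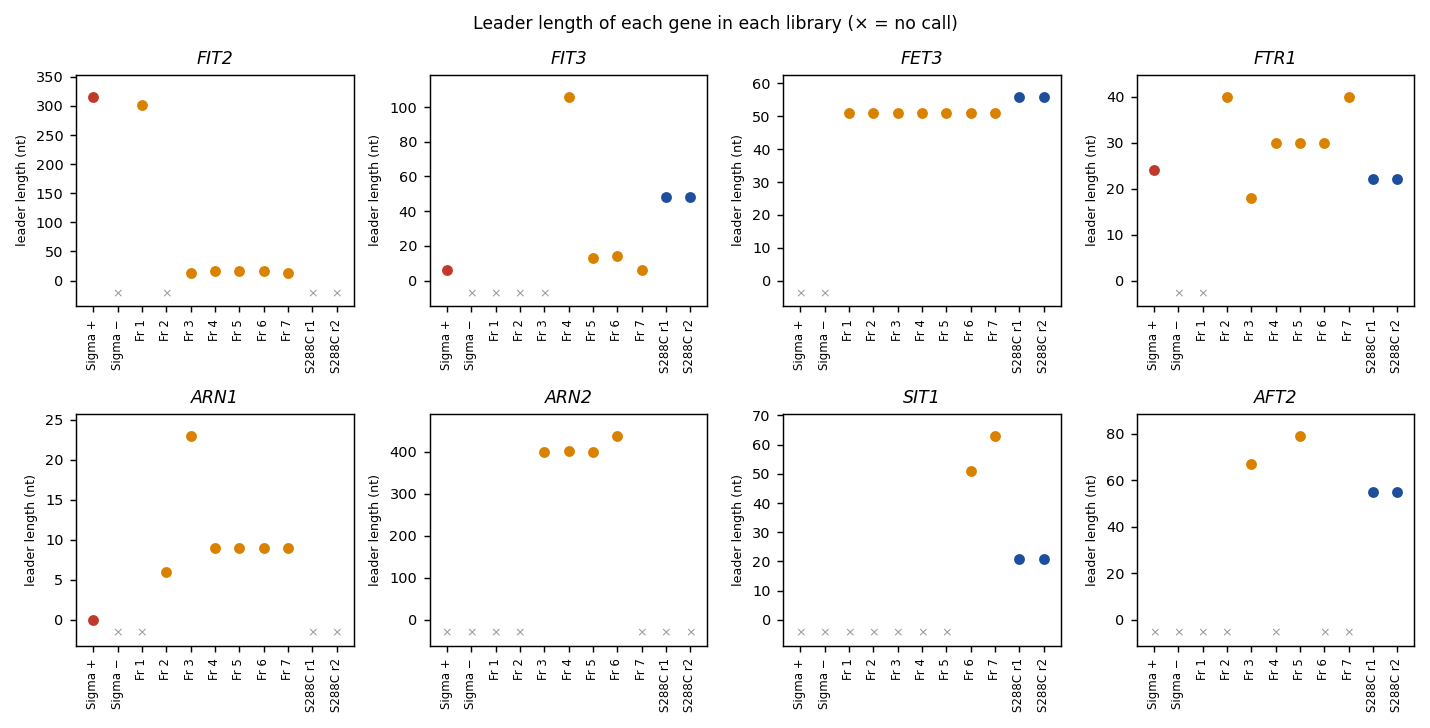
Leader length in nt (y axis, a separate linear scale for each gene) in each library (x axis, labelled as in the plot of calls) for the 8 iron genes with a call, where × marks a library with no call. FIT2 stands at 316 nt in Sigma and 301 nt in fraction 1 and at 13 to 17 nt in fractions 3 to 7, while FET3 stands at 51 nt in all 7 fractions.

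Sigma was set against S288C to see whether leaders differ between strains. A gene counted as different when Sigma lay at least 10 nt from both S288C replicates on the same side and the replicates were within 10 nt of each other. FIT3 was shorter, 1 of the 2 iron genes that could be compared, against 27.6% of 1324 genes. FTR1, at 24 nt in Sigma and 22 nt in S288C, did not differ under this rule, and no iron gene was longer, against 13.2% of all genes. All 5 iron genes called in both S288C replicates had the same length in both, as did 76.2% of 3144 genes, so the replicate spread was 0 nt for each. Set against the median over fractions, which came from the same instrument as Sigma, FIT2 was longer, 1 of 4 iron genes compared against 10.4% of all genes, and none was shorter, against 9.40%. Sigma minus the median over fractions was −7.5 nt for FIT3, −6 nt for FTR1 and −9 nt for ARN1, within the limit of 10 nt. For all 4 genes this holds for the median only. FIT3 had 106 nt in fraction 4, which lay 100 nt above Sigma. FTR1 had 40 nt in fractions 2 and 7, against 24 nt in Sigma, and ARN1 had 23 nt in fraction 3, against 0 nt. FIT2 had 301 nt in fraction 1, near its 316 nt in Sigma. With 1 Sigma library, no gene can be tested.

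The gradient fractions were set against S288C in the same way, with the median over fractions as the length. SIT1 and AFT2 were longer, 2 of 5 iron genes against 13.0% of 2261 genes, and FIT3 was shorter, 1 of 5 against 31.4%. FET3 and FTR1 lay within 10 nt of S288C. The median difference was 8 nt over the 5 iron genes (from −34.5 to 36 nt), against −5 nt over all genes compared. SIT1 and AFT2 rested on 2 fractions each. Among iron genes called in at least 3 fractions only FIT3 differed. Method, instrument and label also differ between these libraries and cannot be told apart.

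**Figure D3:**
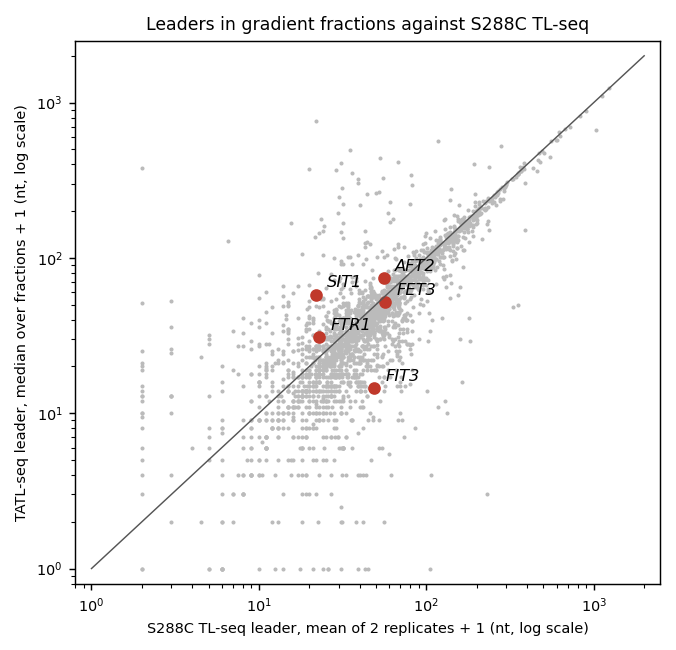
Leader length in TATL-seq (y axis, median over the fractions with a call) against S288C TL-seq (x axis, mean of 2 replicates), both in nt plus 1 on a log scale; grey points are all genes compared, red points the 5 iron genes and the line marks equal lengths. SIT1, AFT2 and FTR1 lie above the line, 36, 18 and 8 nt longer in TATL-seq, and FIT3 (34.5 nt shorter) and FET3 (5 nt shorter) lie below it.

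Across fractions, 3 of the 4 iron genes called in at least 5 fractions had a range of at least 10 nt, FIT2 (from 13 to 301 nt), FTR1 (a range of 22 nt) and ARN1 (17 nt), against 31.0% of 2061 genes. Their median range with FET3 was 19.5 nt, against 4 nt over all genes. With at least 3 fractions, FIT3 (100 nt) and ARN2 (38 nt) joined them, 5 of 6 against 31.8% of 2704 genes. In 4 genes the range came from a single fraction, and it was a different fraction in each: fraction 1 for FIT2, fraction 3 for ARN1, fraction 4 for FIT3 and fraction 6 for ARN2. One fraction stood apart by Dixon's gap criterion in 4 of 5 iron genes with 4 or more fractions and more than 1 length, against 40.2% of such genes among all. Of the 29 other iron and copper genes, 6 of 7 such genes passed too. Without that fraction the range was 4 nt for FIT2, 3 nt for ARN1, 8 nt for FIT3 and 1 nt for ARN2. FTR1 had 3 lengths (18, 30 and 40 nt) in 6 fractions, and its range was 10 nt without fraction 3. Each fraction is 1 library, so the error of a single length in a single fraction is unknown.

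**Figure D4:**
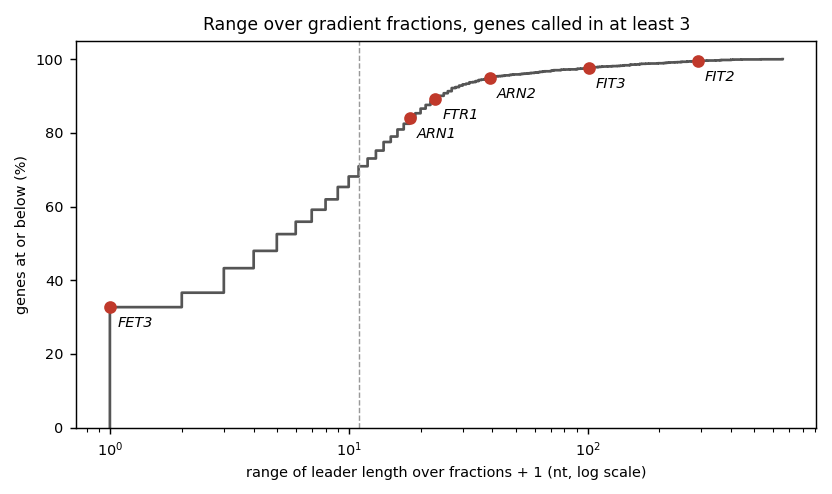
Range of leader length over gradient fractions in nt plus 1 (x axis, log scale) against the percentage of genes at or below it (y axis), for the 2704 genes called in at least 3 fractions; red points are the 6 iron genes among them and the dashed line marks a range of 10 nt. FET3 sits at 0 nt, and ARN1 (17 nt), FTR1 (22 nt), ARN2 (38 nt), FIT3 (100 nt) and FIT2, farthest out, lie to the right of the line.

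The surroundings of the 10 genes were read from the annotation. The gap between the start codon and the next annotated gene upstream had a median of 701 bases (from 431 for AFT2 to 3104 for FIT1), against 430 bases over all genes with a gap. No called leader of the 8 genes reached the next gene upstream. Among all 4525 called genes with a gap, the longest leader reached it in 0.530%. A leader of at least 100 nt in any library was found in 3 of the 8, FIT2, FIT3 and ARN2, against 23.2% of all called genes. FIT1, FIT2, FIT3, ARN1, ARN2 and SIT1 lay 4 to 13 coding genes from a chromosome end, and FET3, FTR1, AFT1 and AFT2 lay at least 51 coding genes away. The share of all genes that close to an end was not computed, so whether this is usual cannot be said.

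**Figure D5:**
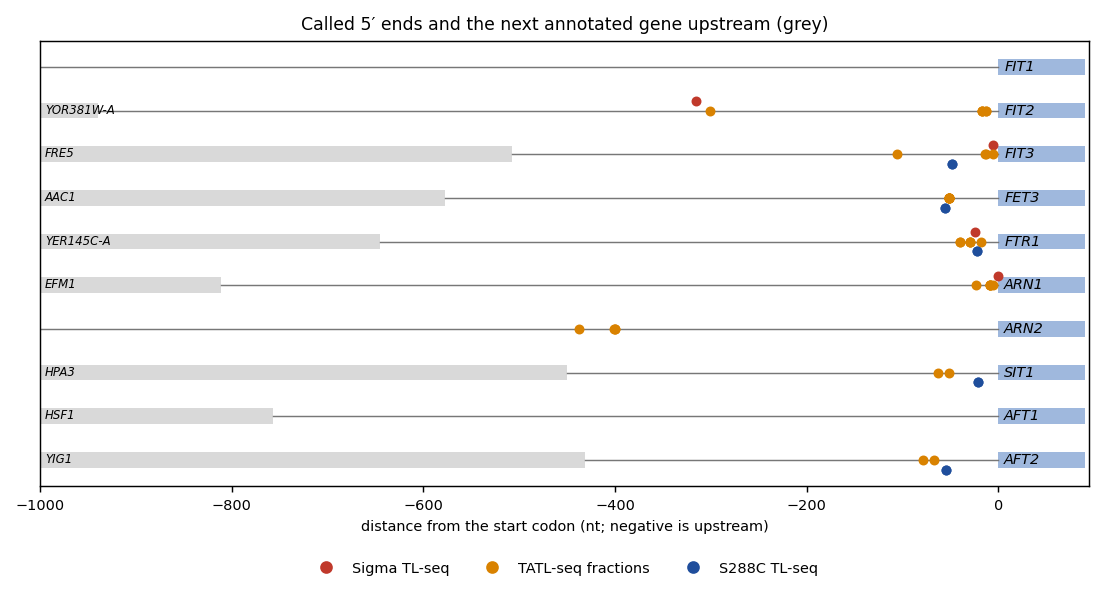
Called 5′ ends of the 10 genes as distance from the start codon in nt (x axis, negative is upstream), one row per gene, with Sigma ends above, TATL-seq ends on and S288C ends below each line; blue marks the start of the coding region and grey the next annotated gene upstream, where it lies within 1000 bases. FIT2 has ends 301 and 316 nt and 13 to 17 nt before the start codon, ARN2 has ends 400 to 438 nt before it, and all other ends lie within 106 nt of the start codon.

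A wider list of 29 iron and copper genes was examined beside the 10, and 21 of the 29 had a call, against 75.6% of all 6021 genes. Of the partners that restrain Aft1, the glutaredoxin genes GRX3 and GRX4 and BOL2 (also called FRA2) had no call, and FRA1 had 104 nt in S288C replicate 1 only. The reductase genes FRE2, FRE4 and FRE5 had no call either. FRE1, for the main surface reductase, had 34 nt in fractions 3, 6 and 7, and FRE3, for a siderophore reductase whose gene lies near FIT2, had 664 nt in Sigma and in fraction 6. ENB1, the enterobactin transporter gene, had 23 nt in both S288C replicates and no other call.

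Against S288C, 1 of 5 genes of this list was longer in Sigma, where 13.2% of all genes were, and none was shorter, where 27.6% were. The longer one was the vacuolar reductase gene FRE6, at 67 nt in Sigma and 24 nt in both S288C replicates. The median over fractions was shorter than S288C for 1 of 5, against 31.4% of all genes, and longer for none, against 13.0%. The shorter one was FET5, the Fet3-like vacuolar oxidase gene, at 4 nt in fraction 6 and 23 nt in both S288C replicates. FTH1, the vacuolar partner of FET5, had 81 nt in Sigma and in all 7 fractions, against 90 nt in both S288C replicates, just inside the limit of 10 nt. ATX1, a copper chaperone gene that serves Fet3, had 26 nt in Sigma and all fractions, against 30 nt in both S288C replicates. Set against the fractions, FET5 (17 nt) and HMX1, the heme oxygenase gene (24 nt), were longer in Sigma, with medians of 4 and 9.5 nt over fractions. That was 2 of 8, against 10.4% of all genes.

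Across fractions, 3 of 9 genes of the list had a range of at least 10 nt when called in at least 5, near the 31.0% of all genes. The mitochondrial iron carrier gene MRS4 had 165 nt in fraction 1 and 68 nt in fractions 2 to 6. The vacuolar iron importer gene CCC1 had 114 nt in fraction 1, 91 nt in fraction 2, 92 nt in fraction 5, and again 91 nt in fractions 6 and 7. ISU2, for a scaffold of iron-sulfur cluster assembly, had 23 nt in fraction 1 and 40 nt in fraction 3, and the 5 remaining fractions gave 18 nt. FET4, the low-affinity iron transporter gene, had 514 nt in all 7 fractions, the longest even leader of the list.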

How the data were processed

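Leader lengths in nucleotides, 1 whole number per gene and library, were used as deposited by the authors. Reads were aligned with Bowtie, with sacCer3 as the build of the 9 Genome Analyzer II libraries, per the submitters' processing notes; for S288C TL-seq the build, and for all libraries the annotation and the rule for choosing 1 length, were not given in the sources used here. The files hold no counts, so no count test, interval or floor applies.

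Gene names were matched to locus tags of RefSeq R64; 4549 of 6021 protein-coding genes had a call, and tRNAs, snoRNAs and pseudogenes were left out. Strand was read from the systematic name. The TATL-seq length was the median over fractions with a call. The members and gene lists were chosen with earlier results of these data known, and all members are named throughout. Differences, ranges and background shares were computed over all genes in Python 3.11.15, with code tested on simulated data. Settings varied were the 10 nt limit, the replicate limit, the summary over fractions, the number of fractions, a subtracted median difference and the libraries used. Start site sequences and motifs were not analysed here. Likeness to FIT2 was planned over at least 8 shared libraries and was taken over its 7.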

Additional observations from a re-analysis of the deposited data

Results flagged for a closer look

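In 4 iron genes 1 gradient fraction lay far from the others, measured as its gap to the nearest other fraction divided by the whole range. FIT2 had 301 nt in fraction 1, with a ratio of 0.986 over 6 fractions. FIT3 had 106 nt in fraction 4, with a ratio of 0.920 over 4 fractions. ARN1 had 23 nt in fraction 3, with a ratio of 0.824 over 6 fractions. ARN2 had 438 nt in fraction 6, with a ratio of 0.974 over 4 fractions. Each ratio was above Dixon's critical value for that number of fractions, which chance passes in about 1 in 20 groups of values without ties. Leader lengths tie often, and 40.2% of all genes with more than 1 length passed. So did 6 of 7 such genes of the wider iron and copper list, among them SMF1, with lengths of 33 and 35 nt only. The fractions are parts of 1 gradient and not replicates.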

How the results depend on the processing

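The median over fractions differed from S288C in 3 of 5 iron genes, against 1002 of 2261 genes, and of these SIT1 and AFT2 had calls in 2 fractions. With at least 3 fractions required the count was 1 of 3 (FIT3), against 770 of 1871 genes. With a limit of 5 nt it was 5 of 5, against 1581 of 2261. With a limit of 20 nt it was 2 of 5, against 478 of 2261. With the median difference of −5 nt subtracted it was 4 of 5 (FTR1 added), against 890 of 2261. Under the other alternatives, leaving out either S288C replicate or any fraction included, it was 3 of 5. The count over all genes moved there too, for example to 1336 of 2736 without S288C replicate 1. FIT3, shorter in Sigma, stayed the 1 iron gene of 2 that differed under every alternative that kept S288C as the comparison. Of all 1324 genes, 541 differed in the main setting, 904 with a limit of 5 nt and 269 with a limit of 20 nt. With the fractions as the comparison the count was 1 of 4, against 354 of 1788 genes, and the gene was FIT2, longer in Sigma. FIT2 had no S288C call, so it was not among the 2 genes compared with S288C. FIT3 was still shorter in Sigma than the median over fractions, but within the limit of 10 nt. The count of iron genes with a range of at least 10 nt over fractions was 3 of 4 with at least 5 fractions, against 638 of 2061 genes. It was 5 of 6 with at least 3, against 861 of 2704. With all 7 it was 0, where only FET3 could be counted, against 345 of 1221. It was 2 of 4 without fraction 1, which removed FIT2, against 485 of 1919. Without fraction 3, which removed ARN1, it was also 2 of 4, against 501 of 1820. No paired analysis was possible because the results come from no test. The alternatives for start site motifs were not run, since no sequence was used. Leaving out libraries for the count of called genes, and likeness over 7 libraries, were chosen after seeing the data. Read depth per call is unknown.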

Other observations

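The genes whose lengths over the 7 libraries that called FIT2 were most like its pattern, after each gene's own median was subtracted, were PGC1, for a phosphatidylglycerol phospholipase, GLO1, for glyoxalase, and CRZ1, for a calcineurin-responsive activator, of 972 genes compared. Their mean absolute differences from FIT2 were 46.0, 49.6 and 54.9 nt. In fraction 1 they had 283, 258 and 304 nt, close to the 301 nt of FIT2, but in Sigma they had 14, 14 and 92 nt, against 316 nt for FIT2.

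Picked after the values were seen, 12 of the 1102 genes called in Sigma, in fraction 1 and in at least 4 other fractions exceeded the median of fractions 2 to 7 by at least 100 nt in fraction 1, and 2 of the 12, FIT2 and the mitophagy gene ATG33, had a Sigma leader at least 100 nt above that median too.

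TIS11, for a protein that promotes decay of mRNAs for iron-using proteins, had 5 nt in fraction 5 and 97 nt in fraction 7. Its paralog CTH1 had 97 nt in Sigma and 86 to 88 nt in 6 fractions, against 92 nt in the 1 S288C replicate that called it. YAP5, for the activator that responds to high iron, had 5 nt in Sigma and 9 to 11 nt in the fractions, against 10 and 22 nt in the S288C replicates.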
